A study of Mus musculus with 4 samples.

Results

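The complement genes of mouse articular cartilage were examined at rest and 3 days after injury, at a young and at an adult age. The set comprised 30 genes, which were picked by name and looked up by symbol among the 24532 genes of the expression table, and every one of the 30 was listed. It covered the C1q subunits, the receptors for complement fragments, the proteases and substrates of the classical, alternative and lectin routes, the terminal components, the regulators and the C1q-binding protein C1qbp. The 3 C1q subunits and 4 receptors (C3ar1, C5ar1, C5ar2 and Vsig4) were kept apart as a class that is typical of myeloid cells. Another class held 22 components and regulators that cells of the joint may also make, and C1qbp stood alone.

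Cartilage was taken from wild-type C57BL/6 mice in 4 groups, a sham and an injured one at each age. Young mice were aged 3 weeks. For the adults, the methods of the study give 10 weeks and the sample labels 12 or 14 weeks. Where 4 values follow each other without a label, the sham and then the injured value of the young precede those of the adult. The methods describe a full-thickness cartilage injury (FTCI) of the knee made with a needle, whereas the labels of both injured groups name DMM surgery, a destabilization of the medial meniscus. The column names of the table give day 3 for all libraries apart from adult sham, which carries days 3 to 14. RNA was pooled from 10 injured or 5 uninjured mice, so that each group was 1 library. No difference below has a replicate check, and no p-value or SD can be given. The study also states that non-cartilage tissue could not be avoided in these samples.

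Values are FPKM as deposited, in which the fragments of a gene are scaled to the length of its transcript and the size of the library, and differences are log2 ratios of FPKM + 1 between 2 libraries. A gene is called higher or lower from a 2-fold difference on this scale, and "rose" and "fell" are used only for such genes. The added 1 FPKM shrinks the ratios of weakly expressed genes. For ratios and calls, "as deposited" means this FPKM + 1 scale without rescaling of the libraries. The summed FPKM ranged from 469939 to 533468 between the libraries. The number of fragments behind these values is not stated. Steps among low values gave a rough guess of 25.7 to 30.9 fragments per FPKM and kilobase, if 1 step is 1 fragment. Only part of the low values lay on such steps (363 of 1251 in young sham cartilage), so that no counting error is given. Of the chondrocyte genes, Col2a1 was at 3173 to 9349 FPKM, and 8 chondrocyte markers summed to 11789 to 16178 FPKM. The 8 markers differed with age. Between young and adult sham cartilage, Matn1 was at 1661 and 2.65 FPKM and Matn3 at 391.8 and 2.30 FPKM. Of the 8, 4 were at least 2-fold lower and 1 higher in adult than in young sham cartilage. RNA of other tissues was present too. The summed FPKM of the marker lists lay between 298.2 and 1061 for muscle (6 genes), between 2946 and 17631 for erythroid cells (5 genes), between 1194 and 2436 for neutrophils (10 genes), and between 15.8 and 78.0 for endothelium (6 genes). All 6 endothelial markers rose after injury at both ages, with medians of the log2 ratio of 1.92 (young) and 1.51 (adult). The part of endothelium in the complement values was not tested. In contrast, the liver genes Alb, Ttr, Fgb and Cyp3a11 were listed at 0 in each library, and the 6 liver markers summed to at most 1.28 FPKM.

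Complement is a cascade of plasma and tissue proteins that marks debris and microbes for removal. C1q, made mainly by macrophages and dendritic cells, binds its target and activates the proteases C1r and C1s, which cleave C4 and C2. The lectin route reaches C4 and C2 through the MASP proteases, and the alternative route uses factor B, factor D and properdin. All routes meet at C3, whose fragments coat the target and attract cells, and continue to C5 and the membrane attack complex of C5b, C6, C7, C8 and C9. The liver is the main source of plasma complement, but chondrocytes, synovial fibroblasts and macrophages also make several components, and complement has been linked to osteoarthritis.

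Many members lie in gene clusters. On GRCm38.p6, the assembly of mm10, C1qb, C1qc and C1qa lie side by side on chromosome 4 between 136880126 and 136898844. C4b, C4a, Cfb and C2 lie on chromosome 17 between 34728139 and 34882100, within the major histocompatibility complex, with C3 on the same chromosome at 57203967 to 57228136. C5ar2 and C5ar1 are neighbours on chromosome 7, from 16234587 to 16259540. C7 and C6 are close on chromosome 15. C3ar1, C1rl and C1ra lie on chromosome 6 between 122847140 and 124523440.

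The 250 bases before the transcription start were available from RefSeq (GRCm38.p6) for 22 of the 30 genes; C1qa, C2, C4a, C4b, Cfb, Cfi, Serping1 and Masp1 had no entry. The sequences of the 5 genes with an entry that were at least 2-fold higher after injury at both ages are shown, since they passed the threshold at both ages, although with ratios of different size. They are written 5′ to 3′ on the strand of the gene, and capitals mark matches, on either strand, to GGG and CC with any 5 bases between, a short form of the NF-κB motif.
C1qb upstream, chr4:136886201-136886450, minus strand: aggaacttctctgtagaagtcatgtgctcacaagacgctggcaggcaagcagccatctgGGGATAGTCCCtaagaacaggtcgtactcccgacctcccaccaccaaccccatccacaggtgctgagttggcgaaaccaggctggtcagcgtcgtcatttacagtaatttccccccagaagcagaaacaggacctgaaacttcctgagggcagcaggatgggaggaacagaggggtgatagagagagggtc
C1qc upstream, chr4:136892915-136893164, minus strand: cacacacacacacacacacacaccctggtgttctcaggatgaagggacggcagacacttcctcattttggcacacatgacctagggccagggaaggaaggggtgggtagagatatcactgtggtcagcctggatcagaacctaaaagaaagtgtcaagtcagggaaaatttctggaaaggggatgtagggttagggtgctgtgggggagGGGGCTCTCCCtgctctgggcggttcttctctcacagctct
C3ar1 upstream, chr6:122856158-122856407, minus strand: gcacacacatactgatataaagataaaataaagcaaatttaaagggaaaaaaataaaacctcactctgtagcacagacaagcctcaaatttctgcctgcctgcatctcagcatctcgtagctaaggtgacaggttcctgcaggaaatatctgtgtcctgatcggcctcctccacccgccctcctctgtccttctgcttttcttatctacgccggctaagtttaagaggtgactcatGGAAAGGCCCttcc
C3 upstream, chr17:57228137-57228386, minus strand: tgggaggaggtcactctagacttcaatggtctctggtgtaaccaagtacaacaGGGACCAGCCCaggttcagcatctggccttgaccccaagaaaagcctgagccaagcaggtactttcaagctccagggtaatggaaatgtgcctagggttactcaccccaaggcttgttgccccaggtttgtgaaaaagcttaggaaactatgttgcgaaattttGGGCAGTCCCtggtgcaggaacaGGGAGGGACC
Cfp upstream, chrX:20931556-20931805, minus strand: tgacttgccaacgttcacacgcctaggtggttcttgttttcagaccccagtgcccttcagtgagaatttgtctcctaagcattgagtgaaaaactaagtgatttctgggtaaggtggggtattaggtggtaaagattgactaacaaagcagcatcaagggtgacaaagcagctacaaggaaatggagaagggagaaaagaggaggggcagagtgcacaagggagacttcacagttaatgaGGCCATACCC

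C3 had 5 matches in this window and C1qc 3, where a stretch that matches on both strands counts once for each and overlapping matches count separately. The motif is short and common. It was found in 45.8% of the 32851 promoters of the table, and in 11 of the 22 complement genes. A pair of GAAA with any 2 bases between, a short form of the interferon-stimulated response element, was in none of the 5 sequences, and was found in Cd59a and Colec11 among the members and in 2.98% of all promoters. TTC and GAA with any 3 bases between, the STAT-binding GAS motif, was also in none of the 5, and occurred in Masp2, Colec11 and C7 and in 7.02% of all promoters. GGAA, the core of the ETS motif bound by the myeloid factor PU.1, was in each of the 22 genes and in 93.4% of all promoters. A match describes only these letters and is no evidence of binding.

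After injury, 10 of the 30 genes rose in young cartilage and 9 in adult cartilage. None fell in young cartilage and only Cfd fell in adult cartilage. Across the 18181 genes above 0 in at least 1 library, 4.57% were at least 2-fold higher and 1.27% lower after injury in young mice, and 6.90% higher and 1.46% lower in adult mice. Median-of-ratios scaling, which uses 1 factor per library, changed the adult background to 4.76% higher and 2.50% lower. The 9 genes that rose in adult cartilage also rose in young cartilage. They were C1qa, C1qb, C1qc, C3ar1, C3, C4a, C4b, Cfb and Cfp, and Serping1 rose in young cartilage alone at the 2-fold threshold. The median log2 ratio of the 29 members above 0 was 0.42 for the young and 0.65 for the adult, against 0.00 and 0.14 over all genes. For C1q with the receptors (7 genes) the medians were 3.38 and 1.71, and 4 of the 7 rose at each age. For the other components and regulators (21 genes above 0) they were 0.31 and 0.51, with 6 genes that rose in the young and 5 in the adult. Expression was wide in range. A level of 1 FPKM or more in all 4 libraries was reached by 18 members, and 7 stayed under 1 FPKM in all of them, including Cfi, which was listed at 0 throughout.

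**Figure D1:**
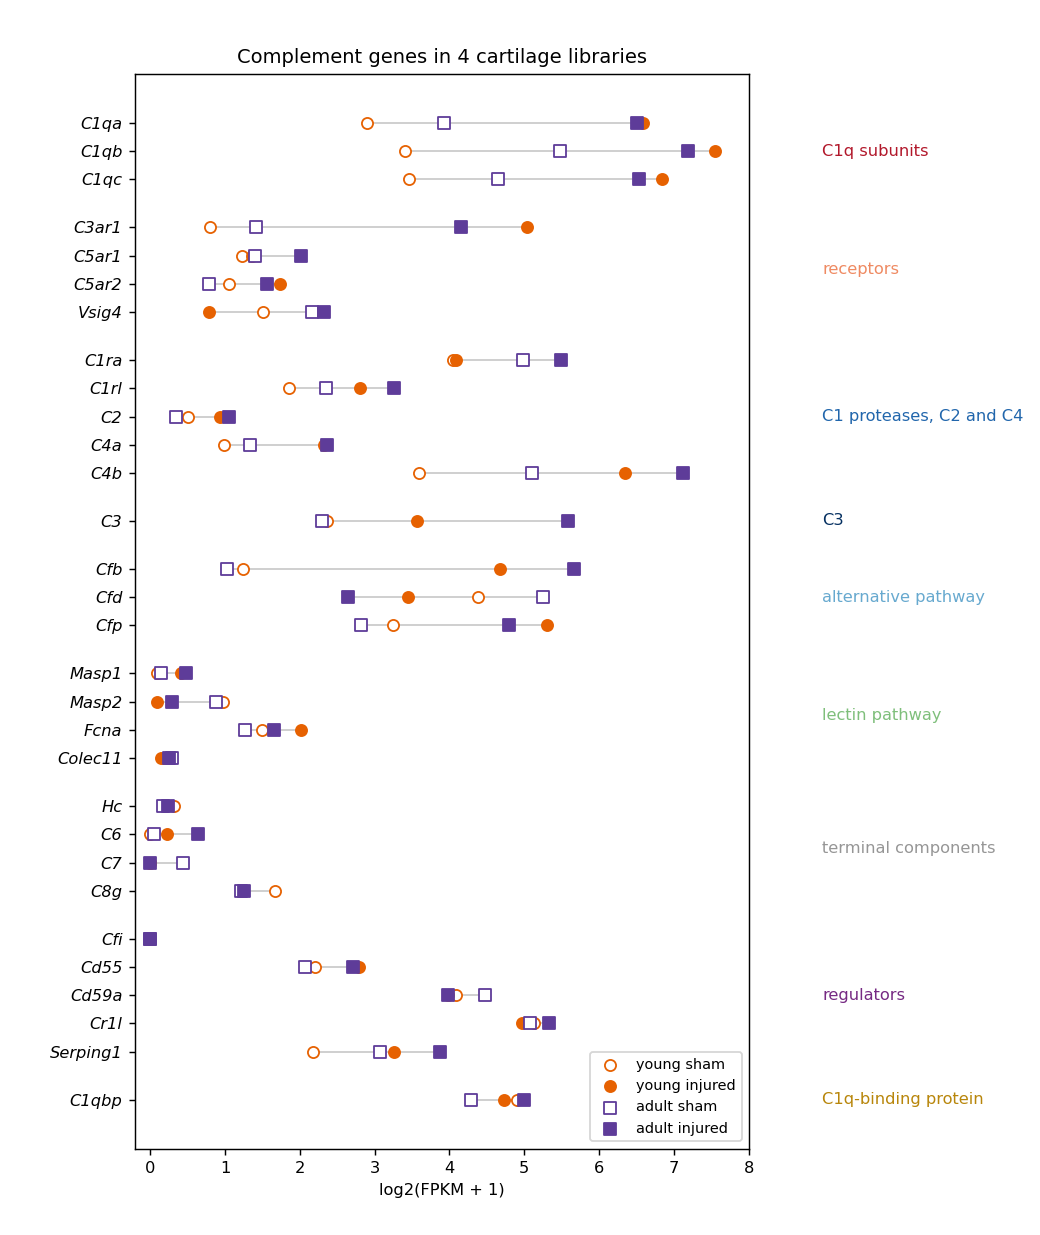
Expression of the 30 complement genes as log2(FPKM + 1), with 1 point per library and genes grouped by role; open symbols are sham and filled symbols injured cartilage, circles young and squares adult mice. C1q subunits reach 89.7 to 186.5 FPKM in the injured libraries, whereas the lectin and terminal genes stay at 3.06 FPKM or less in every library.

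The C1q subunits were among the most abundant complement genes after injury. C1qa, the A chain, was at 6.46 (sham) and 94.9 FPKM (injured) in the young, and 14.1 (sham) and 89.7 FPKM (injured) in the adult. C1qb, the B chain, was at 9.57, 186.5, 43.5 and 144.4 FPKM. C1qc, the C chain, was at 10.01, 114.0, 24.1 and 91.8 FPKM. For each chain, both injured libraries lay above both sham libraries, and young sham was the lowest of the 4. The log2 ratios after injury were 3.68, 4.15 and 3.38 for C1qa, C1qb and C1qc in young mice, and 2.58, 1.71 and 1.89 in adult mice. The higher ratios in young mice went with lower sham levels, since all 3 chains were at least 2-fold higher in adult than in young sham cartilage, with log2 ratios of 1.02 for C1qa, 2.07 for C1qb and 1.19 for C1qc. With 5 FPKM added, C1qa (0.74) and C1qc (0.955) were under 2-fold there. In the injured libraries the chains were close, with log2 ratios of young against adult mice of 0.08, 0.37 and 0.31. The first of these, that of C1qa, changed sign when the libraries were rescaled (−0.10 to −0.01).

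The summed FPKM of the 3 chains was 26.0 (sham) and 395.4 FPKM (injured) in the young, and 81.7 (sham) and 325.8 FPKM (injured) in the adult. C1qb contributed 36.8%, 47.2%, 53.2% and 44.3% of this sum in the same order. C1q protein contains the chains in equal numbers. The FPKM were not equal between them, and the share of C1qb was lowest in young sham cartilage.

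Macrophage markers moved with C1q. Of 15 macrophage markers, 12 rose in young and 12 in adult injured cartilage, with medians of the log2 ratio of 3.09 and 2.07. Their summed FPKM was 187.9 (sham) and 1822 FPKM (injured) in the young, and 254.6 (sham) and 1533 FPKM (injured) in the adult. Csf1r, the receptor for macrophage colony-stimulating factor, was at 7.90, 47.6, 17.1 and 55.0 FPKM. The C1q sum per FPKM of Csf1r was 3.30 in young sham and 8.31 in young injured cartilage, and 4.77 and 5.93 in adult mice. Against Adgre1 (F4/80), by contrast, the ratio was 19.5 and 13.1 in young mice and 25.4 and 19.4 in adult mice. Per FPKM of Cd68 it was 2.53 and 3.88 in the young and 3.57 and 3.12 in the adult, and per FPKM of Lyz2 0.184 and 0.311, and 0.446 and 0.299. The ratio was thus higher after injury for 3 of these 4 marker genes in the young. In the adult it was lower for 3 of the 4. These 4 are part of the 15 markers, and the direction depended on the marker. In plain FPKM the 3 chains rose 11.4 to 19.5-fold in the young, against 61.3-fold for Fcgr1, 52.7-fold for Msr1 and 27.4-fold for Ctss. Mrc1 (10.5-fold) and Cx3cr1 (9.57-fold) rose less. With 1 FPKM added, C1qa, C1qb and C1qc had larger log2 ratios than 11, 14 and 10 of the 15 markers in the young. In the adult these numbers were 11, 7 and 7. In bulk tissue, a change in the number of cells and a change in RNA per cell cannot be told apart, and the part of macrophage number in these values was not tested. Between the sham libraries C1qb and C1qc had a larger log2 ratio than all 15 macrophage markers, whose median was 0.37, and C1qa than 13. Csf1r (1.03) and Cd68 (1.08) were themselves at least 2-fold higher in adult sham cartilage, and Mertk (−1.33) was lower. In plain FPKM, C1qb was 4.54-fold higher in the adult, above every marker. C1qc was 2.407-fold higher there, below Ms4a7 (2.73), Aif1 (2.54) and Adgre1 (2.414).

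**Figure D2:**
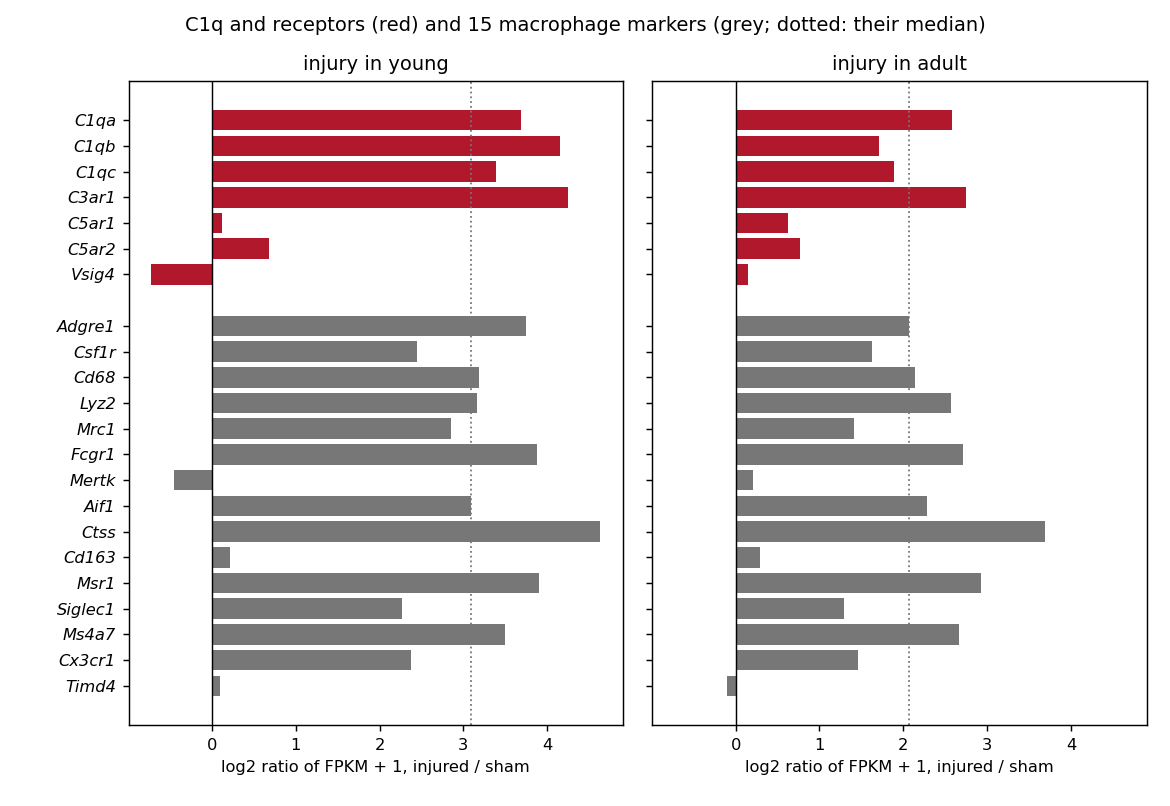
Log2 ratio of FPKM + 1 after injury in young (left) and adult mice (right), for the C1q subunits and receptors (red bars) and 15 macrophage markers (grey bars, with their median as a dotted line). C3ar1 and C1qa lie above the marker median (3.09 left, 2.07 right), and C5ar1, C5ar2 and Vsig4 lie far below it.

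The receptors did not move as a group. C3ar1, the receptor for the C3a fragment, was at 0.735 (sham) and 31.9 FPKM (injured) in the young, and 1.66 (sham) and 16.9 FPKM (injured) in the adult. It had the largest log2 ratio of all members in young mice, 4.25, and a log2 ratio of 2.75 in adult mice. Both injured libraries were well above both sham libraries, with young injured cartilage the highest. C5ar1, the main receptor for C5a on neutrophils and macrophages, was at 1.35, 1.56, 1.64 and 3.06 FPKM, with log2 ratios of 0.12, whose sign turned with rescaling, and 0.62. C5ar2, the second C5a receptor, was at 1.07, 2.33, 0.733 and 1.95 FPKM, with log2 ratios of 0.68 and 0.77. Neither C5a receptor passed the 2-fold threshold in any comparison as deposited, but C5ar2 did in adult mice on the TPM scale (1.07) and at both ages with 0.1 FPKM added (1.05 and 1.299).

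Vsig4, a C3b and iC3b receptor of tissue-resident macrophages, went another way than C3ar1. It was at 1.84 (sham) and 0.717 FPKM (injured) in the young, and 3.49 (sham) and 3.98 FPKM (injured) in the adult. Its log2 ratio was −0.72 after injury in young mice, below every one of the 15 macrophage markers, and passed 2-fold on the TPM scale (−1.01). In adult mice it was 0.15, with a sign that turned with rescaling (−0.19 to 0.26). In injured cartilage Vsig4 was lower in young than in adult mice by a log2 ratio of −1.54. Of the 15 macrophage markers, Timd4, Cd163 and Mertk did not pass 2-fold after injury at either age, with log2 ratios of 0.10, 0.21 and −0.45 in the young.

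C4b, the main C4 gene, rose at both ages, while the C1 proteases did not as deposited. C4b was at 11.1 (sham) and 80.4 FPKM (injured) in the young, and 33.2 (sham) and 138.4 FPKM (injured) in the adult, with log2 ratios of 2.76 and 2.03 after injury. It was also higher in adult than in young sham cartilage, with a log2 ratio of 1.51. Adult cartilage held more C4b than young cartilage both at rest and after injury, the latter by less than 2-fold (−0.78 for young against adult). C4a, which encodes sex-limited protein, was at 0.983, 3.99, 1.51 and 4.14 FPKM, and its log2 ratios were 1.33 and 1.03. The adult ratio of C4a dropped under the threshold with scaling by median of ratios (0.86) and with quantile normalization (0.69), and with 5 FPKM added those of both ages did (0.59 and 0.49). C4a and C4b share 43.3% and 48.3% of their 31-base sequence words with each other, so that reads could have been split between them. Their sum had log2 ratios of 2.71 and 2.01.

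C1ra, the protease that C1q activates first, was at 15.5 (sham) and 16.0 FPKM (injured) in the young, and 30.6 (sham) and 44.1 FPKM (injured) in the adult. Age separated these libraries more than injury did, with log2 ratios of 0.04 in young (−0.07 on the TPM scale) and 0.51 in adult mice after injury, but −1.41 for young against adult injured cartilage. C1ra shares 56.9% of its sequence words with C1rb. C1rb was at 3.59 FPKM in the young and 2.57 FPKM in the adult sham library and was listed at 0 in both injured libraries. The sum of the pair was 19.1, 16.0, 33.2 and 44.1 FPKM, and changed with injury by log2 ratios of −0.24 (young) and 0.40 (adult). C1rl, a C1r-like protease, was at 2.63, 5.95, 4.09 and 8.54 FPKM, just under the threshold at both ages (0.94 and 0.91). It passed in adult mice on the TPM scale (1.07), and at both ages with 0.1 FPKM added (1.15 and 1.04). C2, the protease of the classical C3 convertase, stayed at 0.269 to 1.07 FPKM as deposited. It passed 2-fold after injury in adult mice on the TPM scale (1.10) and with 0.1 FPKM added (1.67).

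C3 and Cfb had the opposite age order to C1q. C3, the central component, was at 4.15 (sham) and 10.8 FPKM (injured) in the young, and 3.93 (sham) and 47.0 FPKM (injured) in the adult. The sham libraries were within 2-fold of each other, and adult injured cartilage was far above the rest. C3 rose after injury, by a log2 ratio of 1.196 in the young and 3.28 in the adult. With 5 FPKM added the young ratio was 0.79 and no longer past 2-fold. Cfb, factor B of the alternative C3 convertase, was at 1.37, 24.6, 1.042 and 49.9 FPKM. Its log2 ratios were 3.43 and 4.64, and the adult value was the largest rise of any member. Per FPKM of C3, Cfb was at 0.331 before and 2.28 after injury in the young, and at 0.265 and 1.06 in the adult. The gene model Gm20547 on chromosome 17, from 34856412 to 34882042, overlaps both Cfb and C2 on the same strand and contains 75.5% of the sequence words of Cfb and 40.2% of those of C2, so that a division of reads among the 3 models is possible.

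Of the other alternative pathway genes, Cfp rose and Cfd did not. Cfp, properdin, which stabilizes the alternative convertase and is made by leukocytes, was at 8.52 (sham) and 38.6 FPKM (injured) in the young, and 6.06 (sham) and 26.8 FPKM (injured) in the adult. The log2 ratios were 2.06 and 1.98. Of 10 neutrophil markers, 4 rose in the young and 2 in the adult, with medians of 0.90 and 0.43, and their part in the values of Cfp and C5ar1 was not tested. Cfd, factor D or adipsin, is an abundant product of fat cells. It was at 19.8, 9.86, 37.1 and 5.23 FPKM, so that both injured libraries were below both sham libraries. Cfd fell by 2.61 on the log2 scale in adult mice, whereas the ratio of −0.94 in young mice stayed just inside the threshold and passed it on the TPM scale (−1.08).

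Some markers of fat and muscle moved in the direction of Cfd. Adipoq, adiponectin, was at 4.33 (sham) and 2.60 FPKM (injured) in the young, and 4.54 (sham) and 1.97 FPKM (injured) in the adult. Retn, resistin, was at 1.998, 0.878, 1.71 and 0 FPKM. However, Lpl (5.53, 17.2, 3.65 and 10.1 FPKM) rose at both ages. Fabp4 (29.98, 48.4, 27.3 and 36.2 FPKM) was above sham after injury by less than 2-fold, with log2 ratios of 0.67 and 0.39. The 8 fat markers summed to 44.5, 72.2, 39.1 and 49.8 FPKM. In young mice 1 of the 8 rose and 0 fell, and in adult mice 1 rose and 1 fell. Of the 6 muscle markers, 4 were at least 2-fold lower after injury in adult mice and none in young mice. The part of fat or muscle in the values of Cfd was not tested.

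Genes of the lectin route and of the membrane attack complex were scarce in all libraries. Fcna, ficolin A of macrophages, was the highest of the 4 lectin genes, at 1.83 (sham) and 3.06 FPKM (injured) in the young, and 1.40 (sham) and 2.16 FPKM (injured) in the adult. Masp1, Masp2 and Colec11 stayed under 1 FPKM. Masp2 was at 0.970, 0.0685, 0.833 and 0.222 FPKM, lower in both injured than in both sham libraries, with log2 ratios of −0.88 and −0.59 that the added 1 FPKM compresses. Of the terminal genes, C8g, a lipocalin-like chain of C8, was at 1.32 to 2.18 FPKM. Hc, the mouse gene for C5, was at 0.121 to 0.245 FPKM, C6 reached at most 0.558 FPKM, and C7 was listed at 0 except for 0.354 FPKM in adult sham cartilage. On the FPKM + 1 scale without rescaling, none of these 8 genes passed 2-fold in any comparison. On the TPM scale Masp2 fell by 1.40 on the log2 scale after injury in young mice and C6 had a log2 ratio of 1.04 in adult mice, and with 0.1 FPKM added Masp2 was at −2.67 and −1.54. The same setting took C6 (1.42 and 2.31) and Masp1 (1.35 and 1.26) past 2-fold upwards at both ages, and C7 to −2.18 in adult mice.

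The membrane-bound regulators stayed within 2-fold in each comparison. Cr1l (Crry), the rodent inhibitor of C3 convertases, was at 33.9 (sham) and 30.3 FPKM (injured) in the young, and 32.8 (sham) and 39.4 FPKM (injured) in the adult, and was the most abundant member in young sham cartilage. Cd59a, which blocks the membrane attack complex, was at 16.0, 14.8, 21.3 and 14.8 FPKM. Cd55, decay-accelerating factor, was at 3.61, 5.95, 3.19 and 5.57 FPKM, and its log2 ratios of 0.59 and 0.65 did not reach the threshold. The levels of these 3 genes varied far less between libraries than those of C1q, C3 or Cfb.

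The secreted regulators were less even. Serping1, the C1 inhibitor, was at 3.54 (sham) and 8.56 FPKM (injured) in the young, and 7.40 (sham) and 13.6 FPKM (injured) in the adult. With injury its log2 ratio was 1.08 (young) and 0.80 (adult), and with 5 FPKM added the young ratio was 0.67, inside the threshold. Cfi, factor I, which cleaves C3b and C4b, was listed at 0 in every library. C1qbp, a mainly mitochondrial protein that was first found as a C1q-binding protein, was at 28.9, 25.4, 18.6 and 30.9 FPKM, with log2 ratios of −0.18 and 0.70.

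The young and adult responses were then compared gene by gene, without a test. Among the 7 genes of C1q and receptors, 4 had a log2 ratio that was larger in young mice by 1 or more, which were C1qb (by 2.44), C1qc and C3ar1 (each by 1.498) and C1qa (by 1.10). Of the 22 other components and regulators, C3 (−2.09) and Cfb (−1.20) had the larger ratio in adult mice by that margin. Cfd, which had the lower ratio in adult mice, differed by 1.68. Rescaling moved the difference of C1qa between 0.94 and 1.37 so that it dropped under 1 at its lowest. That of Cfb reached −1.49 but was just inside the margin with quantile normalization (−0.9999). Rescaling took the differences of C4b (0.73 as deposited, up to 1.01), C1qbp (−0.88 as deposited, −1.11 to −0.60) and Vsig4 (−0.88 as deposited, −1.27 to −0.62) past 1. With 5 FPKM added, the differences of C3ar1 (0.97), C1qa (0.82) and Cfb (−0.97) were inside the margin. None of these member differences, nor that of C3, changed sign under rescaling.

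**Figure D3:**
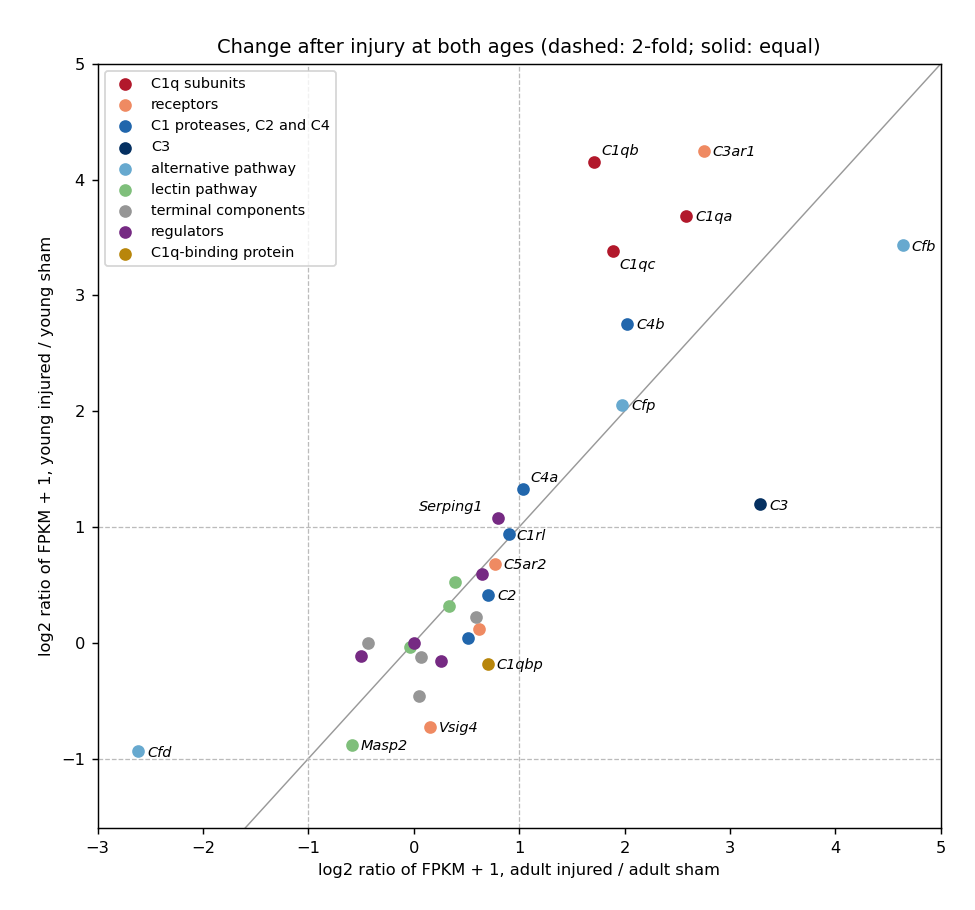
Log2 ratio of FPKM + 1 after injury in young mice (vertical axis) against adult mice (horizontal axis), 1 point per complement gene coloured by role, with dashed lines at 2-fold and a solid line of equal ratios. C1qa, C1qb, C1qc and C3ar1 lie above the line, C3 and Cfb below it, and Cfp on it.

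Adult sham cartilage differed from young sham cartilage in 4 members, C1qa, C1qb, C1qc and C4b, each higher in the adult. Over all genes the adult library tended to lower values, with 2.66% of genes at least 2-fold higher and 10.6% lower. After median-of-ratios scaling these shares were 5.35% and 5.55%, and 7 members were higher. No member was 2-fold lower in adult sham cartilage. The genes nearest below the threshold were C1ra (0.94), Serping1 (0.89) and Cfd (0.88), and each passed it under both of the scalings named for C4a. Both adult libraries were also higher in bone genes, with 6 osteoblast markers summing to 759.8 and 1435 FPKM in young and 5108 and 5741 FPKM in adult sham and injured cartilage. Ibsp alone was at 4136 FPKM in the adult and 368.9 FPKM in the young sham library. Of the 6, 4 were at least 2-fold higher in adult sham cartilage, whereas Sp7 (log2 ratio of −0.01) and Col1a1 (0.14) were not. Other marker lists differed too. In adult against young sham cartilage, 3 of 6 muscle markers were at least 2-fold higher and all 5 erythroid markers lower. Of 15 macrophage markers, 2 were higher and 1 lower. Whether bone or any of these cell types contributed to the age differences was not tested.

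When the injured libraries were set directly against each other, C3, Vsig4 and C1ra were at least 2-fold lower in young than in adult mice, with log2 ratios of −2.02, −1.54 and −1.41, and Cfb followed at −0.99. Cfb passed 2-fold under each of the 3 rescalings (−1.18 to −1.07), which then gave 4 lower members. With 5 FPKM added Vsig4 was at −0.65, inside the threshold. No member was 2-fold higher in young mice. Of all genes, 3.09% were 2-fold higher and 1.80% lower in the young injured library, and 3.40% and 3.44% on the TPM scale. The summed FPKM of C3, C4b, Cfb and C1ra, chosen after their values were seen, was 131.9 in young and 279.4 in adult injured cartilage. The C1q sum was 395.4 against 325.8 FPKM. The 22 components and regulators together reached 255.96 FPKM in the young and 403.7 FPKM in the adult injured library, and C1q with the receptors 431.9 and 351.7 FPKM. Of 8 fibroblast markers, 1 was at least 2-fold higher in the young injured library and none lower, with 4 log2 ratios on each side of 0. All 6 osteoblast markers were lower in the young injured library, 4 of them by 2-fold or more. The part of either tissue in these values was not tested.

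**Figure D4:**
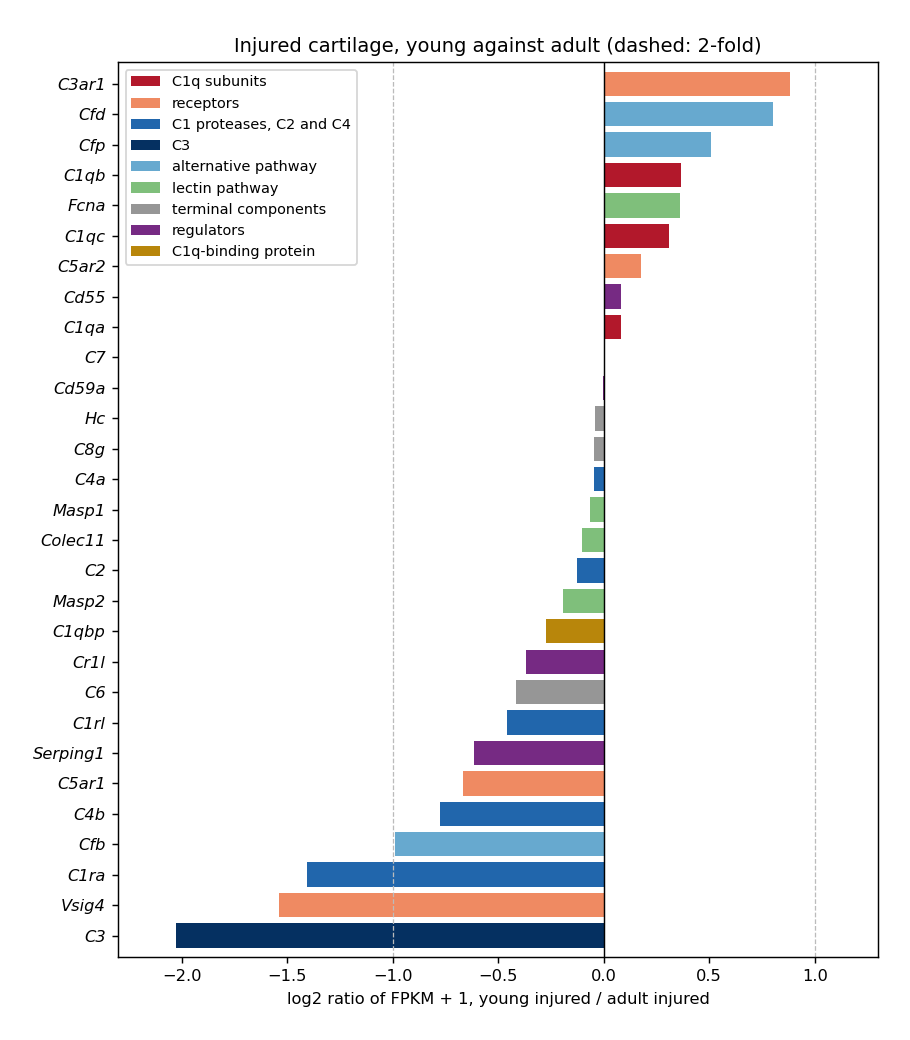
Log2 ratio of FPKM + 1 of young against adult injured cartilage for the 29 complement genes above 0 in at least 1 library, as bars from 0 coloured by role, with dashed lines at 2-fold. C3 at −2.02 is the lowest, and C3ar1 at 0.88 the highest.

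Complement genes outside the set were counted for comparison, from a list of 35 further genes, of which 34 were listed and 27 above 0. In young cartilage 6 rose and 1 fell, and in adult cartilage 6 rose and 2 fell. The genes that rose at both ages included the receptor chains Itgam and Itgb2, which form complement receptor 3. Itgam was at 3.82 (sham) and 31.3 FPKM (injured) in the young, and 2.79 (sham) and 19.4 FPKM (injured) in the adult. Itgb2 was at 6.68, 50.4, 7.59 and 40.7 FPKM, with log2 ratios of 2.74 and 2.28. Of the Itgam sequence words, 67.2% also occur in the gene model Gm49368.

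C1s1, the partner protease of C1r, was at 11.1 (sham) and 12.0 FPKM (injured) in the young, and 11.7 (sham) and 22.8 FPKM (injured) in the adult. Like C1ra, it was highest in adult injured cartilage, but with a log2 ratio of 0.91. Clu, clusterin, an inhibitor of the membrane attack complex and a known product of chondrocytes, was at 1208, 965.2, 3116 and 1468 FPKM, above every member in every library. It fell by 1.09 on the log2 scale after injury in adult mice and had a log2 ratio of −0.32 in young mice. Colec12 was at 107.0, 80.0, 165.7 and 89.0 FPKM and did not pass the threshold. Cd93, once described as a C1q receptor, was at 1.62, 11.6, 0.870 and 7.21 FPKM and rose at both ages, and Fcnb, ficolin B of bone marrow cells, at 3.42 to 6.49 FPKM did not. The mannose-binding lectins Mbl1 and Mbl2 and the pentraxins Apcs and Crp were listed at 0 in all libraries.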

How the data were processed

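RNA-seq libraries of pooled mouse cartilage were prepared by the authors with a stranded poly-A kit from RNA with an integrity number above 7.0, and FPKM per gene were deposited for 4 libraries, 1 per group. The submitters' processing notes name HISAT2 2.1.0 and StringTie 1.3.4d, along with HISAT, STAR and SAMtools, and the build mm10, without giving their roles; filters are not given in the sources used here. All 24532 genes were read, and the 4 columns were assigned to libraries by name. Log2 ratios of FPKM + 1 were computed for 4 comparisons, with 2-fold as the threshold and the 18181 genes above 0 in any library as background. With 1 library per group no test was made. The members, gene lists, marker lists, motifs and threshold were chosen with earlier results of these data known, and one summed group of 4 genes was chosen after its values were seen. Genes named are the 30 members, listed complement genes of at least 5 FPKM, and markers that stand beside a result. Also named are C1rb and the gene models that share sequence words with named genes, and Mbl1, Mbl2, Apcs and Crp, listed at 0. The values of 1 listed gene are not reported here. Sequence words of 31 bases came from GENCODE M21 transcripts, and coordinates and promoters from RefSeq GRCm38.p6; in the deposited table genes were matched by symbol. No counting error is given for the FPKM, since the depth is not stated and was only roughly guessed. The ratios were recomputed with 0.1 or 5 FPKM added, over genes that reach 1 FPKM in any library, from TPM, and with median-of-ratios scaling, quantile normalization, thresholds of 1.5-fold and 3-fold, leaving out members that share 50% or more of their words, and, chosen after seeing the data, sums of C4a with C4b and C1ra with C1rb. Python 3.11.15, numpy 2.4.6, pandas 2.3.3 and matplotlib 3.10.9 were used.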

Additional observations from a re-analysis of the deposited data

Results flagged for a closer look

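The log2 ratios after injury of 5 complement genes had opposite signs in young and adult mice, and with 1 library per group these differences were not tested. The ratio was lower in young mice by −0.88 for Vsig4 (−0.72 in young and 0.15 in adult mice), by −0.88 for C1qbp (−0.18 and 0.70), by −0.50 for C8g (−0.46 and 0.05), by −0.42 for Cr1l (−0.16 and 0.26) and by −0.19 for Hc (−0.12 and 0.07). None of the 10 ratios reached 2-fold as deposited. The adult sign turned with the scaling of the libraries for Vsig4 (−0.19 to 0.26), Hc (−0.04 to 0.14), C8g (−0.34 to 0.13) and Cr1l (−0.01 to 0.36).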

How the results depend on the processing

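With a pseudocount of 0.1 FPKM, 2 members fell after injury in young mice, 14 rose and 3 fell in adult mice, 7 were higher in adult than in young sham cartilage, and 5 were lower in the young than the adult injured library. Over all 18181 genes this setting gave 4.22% lower in young mice, 15.85% higher and 3.61% lower in adult mice, 5.72% higher in adult sham and 4.64% lower in young injured cartilage. The group medians that passed 2-fold with it were those of the C1 proteases, C2 and C4 (1.15 in young and 1.40 in adult mice), of the receptors in adult mice (1.08) and of C1q with the receptors between the shams (1.08). With 5 FPKM, 2 members (1.24% of all genes) were higher in adult sham cartilage and the C1q median was 0.96. On the TPM scale 3 members (2.37% of all genes) fell in young mice, and the median of the C1 proteases, C2 and C4 in adult mice was 1.10. In adult against young sham cartilage, 7 members (5.35% of all genes) were higher after median-of-ratios scaling and 8 (5.04%) after quantile normalization, where the median of C1q with the receptors was 1.00. At 1.5-fold, 3 members fell in young mice, 17 rose and 2 fell in adult mice, 9 were higher and 1 lower in adult sham cartilage, and 2 were higher and 7 lower in young injured cartilage. The shares of all genes at 1.5-fold, in the same order, were 4.81%, 17.9% and 3.96%, 6.54% and 25.1%, and 9.79% and 5.51%. At 3-fold, 1 was higher in adult sham and 1 lower in young injured cartilage, against 1.01% and 0.528% of all genes. Without C1ra and Cfb, which share 50% or more of their sequence words with other gene models, the median of the C1 proteases, C2 and C4 in young mice was 1.13. That of the alternative pathway, then only Cfd and Cfp, was 0.56 in young mice and reversed to −0.32 in adult mice, since Cfb was left out. The other 372 summary values stayed on their side of 2-fold, or within 1.5 times for counts, but 12 group medians under 2-fold changed sign, all of them within 0.22 of 0 as deposited. Of the values of single genes, 1060 kept their side of the threshold, 38 of these with a changed sign (all within 0.26 of 0 as deposited), 41 passed it newly and 14 lost it. No paired analysis was possible because each group had 1 library, and for the same reason no replicate could be left out. The depth is not stated and was only roughly guessed, so that no limit of detection is given.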
